A study of Homo sapiens with 6 samples.

Results

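The genes described here are 7 cell-surface glycoprotein genes, CEACAM1, CEACAM5, CEACAM6, MUC1, MUC4, MUC16 and MUC20, out of 18404 genes with a value. Each was read from the probe set whose platform annotation names that gene alone, and each of the 7 had 1 such probe set. RNA came from H226, an established human squamous carcinoma line of the lung that carries an shRNA against p63, a factor that maintains basal cells of stratified epithelia. All 6 arrays held cells with this construct, plated in RPMI medium with fetal calf serum. Control cells (2 arrays) had shp63 OFF and grew untreated. Nutlin-3 cells (2 arrays) also had shp63 OFF and received 10 µM Nutlin-3, a small molecule that releases p53 from MDM2, for 12 h. The shp63 ON cells (2 arrays) received 1 µg/mL doxycycline for 48 h, which switches the shRNA on. Only this group received doxycycline and no other shRNA was measured, so the drug, its duration and the knockdown cannot be told apart. The treatment label of these arrays reads untreated, and the doxycycline is taken from the treatment protocol. The targeted gene was not analysed here.

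CEACAM proteins are cell adhesion molecules of the immunoglobulin superfamily. CEACAM1 spans the membrane, and its long form carries inhibitory tyrosine motifs in the cytoplasmic tail. CEACAM5, the carcinoembryonic antigen, and CEACAM6 are held in the membrane by a glycolipid anchor. Membrane mucins are long, densely O-glycosylated proteins that form part of the coat of epithelial surfaces. Both families are known as surface antigens of carcinomas, and several members are shed and measured as serum markers.

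The values are log2 intensities, where a difference of 1 is a 2-fold change. Replicate arrays correlated across genes at r = 0.997 to 0.998, against 0.975 to 0.989 between arrays of different groups. Whether replicate arrays held separate cultures is not stated, and the spread between them may be technical. Of 8 basal and squamous epithelial markers with a value, 5 lay above the median level of all genes, and keratin 5 (KRT5) was the highest at a mean of 12.18, whereas the squamous lineage factor SOX2 averaged 5.75, below the lower quartile of all genes (5.85). Of 9 mesothelial markers 3 lay above that median (MSLN, BNC1 and KRT5, which is also on the squamous list), with HP lowest at 3.93. Among the airway and alveolar, leukocyte, fibroblast and endothelial markers, 1 of 11, 1 of 11, 1 of 8 and 1 of 8 lay above it. The mean level of the 11 leukocyte and granulocyte markers ran from 5.80 to 5.81 in control, 5.86 to 5.87 with Nutlin-3 and 5.99 to 6.05 in shp63 ON, and PTPRC, the defining leukocyte marker, averaged 4.32. The 11 airway and alveolar markers had mean levels of 6.02 to 6.10, 5.97 to 6.08 and 6.33 to 6.39 in the same order. In shp63 ON 7 of these 11, 4 of the 11 leukocyte, 3 of the 8 fibroblast and 3 of the 8 endothelial markers rose and none fell, where 19.7% of all genes rose. These 4 lists had median levels of 5.14 to 6.19. Of all genes at a level of 5 to 6, 20.4% rose in shp63 ON, and of those at 6 to 7, 34.7%. Of the squamous list 2 rose and 2 fell in shp63 ON, and of the mesothelial list 2 rose and 2 fell, KRT5 being among the falls of both (−0.37, SE 0.07). With Nutlin-3, 3 of the 8 squamous markers and 1 of the 9 mesothelial markers rose and none fell. The desmosomal cadherin DSG3, on the squamous list, moved most, by 2.03 (SE 0.06) with Nutlin-3 and −0.73 (SE 0.06) in shp63 ON. The part of these lists in the members' differences was not tested. Cells were measured in bulk, so a change in every cell and a change in the share of cells cannot be told apart.

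The CEACAM genes are shown first by the sequence before their starts, because the 3 are close relatives that behaved differently on these arrays. RefSeq start windows (GRCh38.p14) were found for 6 of the 7 genes, with 2 starts each for MUC1 and MUC16. The 190 bases before the start are given 5′ to 3′ on the gene's strand, from chr19:42528482-42528671 (minus strand) for CEACAM1, chr19:41708436-41708625 (plus strand) for CEACAM5 and chr19:41755340-41755529 (plus strand) for CEACAM6. Capitals mark CACGTG and matches to the p53 consensus half-site.
CEACAM1: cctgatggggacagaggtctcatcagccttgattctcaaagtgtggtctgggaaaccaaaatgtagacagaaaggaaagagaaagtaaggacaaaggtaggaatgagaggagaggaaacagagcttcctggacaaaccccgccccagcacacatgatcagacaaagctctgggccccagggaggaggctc
CEACAM5: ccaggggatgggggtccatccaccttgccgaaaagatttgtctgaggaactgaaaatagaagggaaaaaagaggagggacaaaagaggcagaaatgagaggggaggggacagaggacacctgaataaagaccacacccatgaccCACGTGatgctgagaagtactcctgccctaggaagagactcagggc
CEACAM6: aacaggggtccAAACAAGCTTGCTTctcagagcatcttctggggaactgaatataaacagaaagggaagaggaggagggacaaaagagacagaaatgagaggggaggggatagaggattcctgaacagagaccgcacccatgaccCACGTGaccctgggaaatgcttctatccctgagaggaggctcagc

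Over the 250 bases before the start, CEACAM5 and CEACAM6 were identical at 190 aligned bases (76.0% of the window), CEACAM1 and CEACAM6 at 177 (70.8%) and CEACAM1 and CEACAM5 at 170 (68.0%). Pairs that join 2 mucin genes or a CEACAM and a mucin gene, aligned in the same way, shared 48.8% to 55.2%. CACGTG, searched on both strands (it reads the same on each), stood 46 bases before the CEACAM5 start and 45 before the CEACAM6 start, was not found in the windows of the other 4 matched genes, and occurred in 6.34% of 35116 such windows. The p53 half-site occurred in 5.57% of windows. CEACAM6 had 2 overlapping matches, MUC16 had 1 in the window of its inner start, and the other matched windows had none. Transcribed sequences of the CEACAM genes are also alike, and whether a probe of one binds the transcript of another was not tested.

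The MUC1 window is shown because MUC1 was the only one of the 7 genes whose calls in both comparisons with control pointed opposite ways. Its last 60 bases before the outer start, chr1:155192916-155192975 (minus strand), hold a TATAAA box, in capitals.
MUC1: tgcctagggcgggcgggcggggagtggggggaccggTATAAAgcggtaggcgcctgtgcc

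TATAAA, on either strand, occurred in 10.7% of the 35116 windows and, among the 7 genes, in those of MUC1 and CEACAM6. GGGCGG, on either strand, occurred in 42.6% of windows. It was found 4 times in the MUC1 window, which for the outer start runs from 96 to 46 bases before the start, and once each in the windows of CEACAM1, CEACAM6, MUC4 and the outer start of MUC16. These matches are descriptions of letters, not of factor binding.

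The 7 genes were chosen by family from among those whose differences between these groups were already known, that is, on the same log2 intensities. Their values are therefore given as a description with no test, and counts of how many passed limma's threshold (Benjamini-Hochberg adjusted p under 0.05 over all 18404 genes) carry nothing beyond the count. In shp63 ON, both arrays were above both control arrays for all 7 genes, as for 41.3% of all genes (30.4% lay below), and 7 of 7 passed as higher, against 19.7% of all genes higher and 36.2% called in either direction. The 7 included MUC20, which was barely past the threshold and passed in 3 of 14 alternative fits. The count was 4 without control replicate 1, 5 without control replicate 2 and 5 after cyclic loess normalization, which removes differences that follow the level of a gene. It was lowest, at 3 (CEACAM5, CEACAM6 and MUC1), under the analysis of variance that the submitters name, which does not borrow the spread of other genes. With Nutlin-3, 1 passed as higher (CEACAM1) and 1 as lower (MUC1), against 9.64% and 8.89% of all genes (18.5% in either direction). Without regard to the test, both Nutlin-3 arrays lay above both control arrays for 3 members and below for 2, against 30.2% and 30.3% of all genes. Without control replicate 2, and under the analysis of variance, only CEACAM1 passed. The median log2 difference of the 7 was 0.51 in shp63 ON and 0.05 with Nutlin-3, against 0.04 and −0.00 over all genes.

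**Figure D1:**
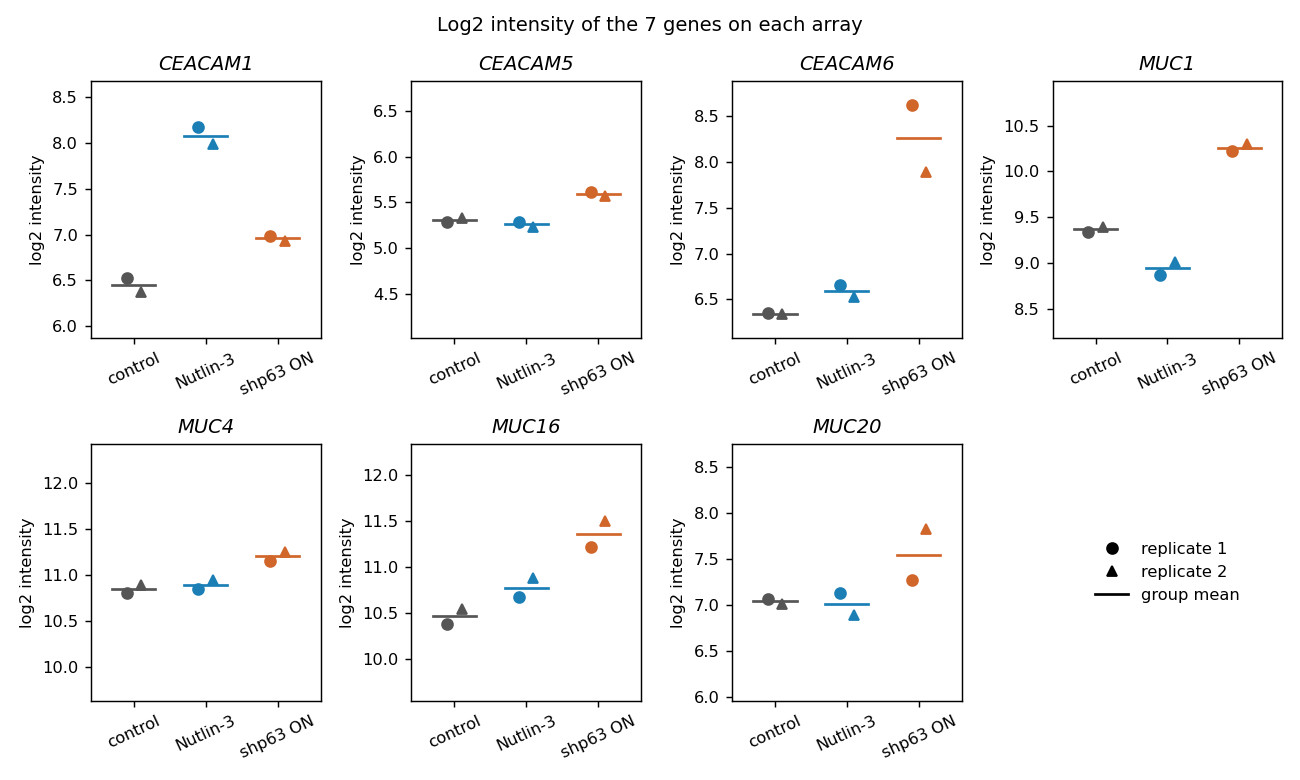
Log2 intensity (vertical axis, each panel spanning the same range of log2 units) of the 7 genes in control, Nutlin-3 and shp63 ON cells. Circles are replicate 1, triangles replicate 2 and lines the group means. CEACAM1 is highest with Nutlin-3 (8.17 and 7.98), and the other 6 genes are highest in shp63 ON on both arrays.

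CEACAM1, the adhesion receptor with an inhibitory tail, was the member most raised in level with Nutlin-3. Its log2 intensity was 6.53 and 6.38 in control, 8.17 and 7.98 with Nutlin-3, and 6.98 and 6.93 in shp63 ON. The 3 groups did not overlap, and shp63 ON lay between the others. The difference from control was 1.62 (SE 0.09, 3.08-fold) with Nutlin-3 and 0.51 (SE 0.09, 1.42-fold) in shp63 ON, and shp63 ON minus Nutlin-3 was −1.12 (SE 0.09). The call in shp63 ON against control was lost under the analysis of variance (adjusted p = 0.0693). Genes within 0.5 log2 units of the mean level of CEACAM1 had a median difference of −0.06 with Nutlin-3 and 0.10 in shp63 ON.

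CEACAM6, the anchored relative of CEACAM5, showed the largest difference of the 7 genes from control, in shp63 ON. It read 6.35 and 6.34 in control, 6.65 and 6.52 with Nutlin-3, and 8.62 and 7.89 in shp63 ON. Both shp63 ON arrays were far above the other 4, but they also lay far apart (SD 0.51, n = 2), the widest spread between replicates among the 7 genes. The difference from control was 1.91 (SE 0.20, 3.76-fold) in shp63 ON, with 1.55 left without shp63_on replicate 1 and 2.28 without shp63_on replicate 2. With Nutlin-3 it was 0.24 (SE 0.20), which did not pass, although the Nutlin-3 arrays were above the control arrays. Genes at a like level had a median of 0.12 in shp63 ON.

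CEACAM5, the gene next to CEACAM6 on chromosome 19, gave low values on all 6 arrays. It read 5.29 and 5.33 in control, 5.29 and 5.23 with Nutlin-3, and 5.61 and 5.57 in shp63 ON. Its mean level was above that of only 17.6% of genes. Detection calls were not used here, so whether the transcript was present is not known. The shp63 ON arrays were higher by 0.28 (SE 0.06, 1.21-fold), while genes at a like level had a median of 0.11. The call in shp63 ON was lost in 5 of 14 alternatives: cyclic loess (0.17) and quantile normalization (0.19), and the fits that left out either control array or shp63_on replicate 1 (0.26 to 0.30). With Nutlin-3 the difference was −0.05 (SE 0.06), which did not pass.

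MUC1, the membrane mucin whose cytoplasmic tail takes part in receptor signalling, was lower with Nutlin-3 and higher in shp63 ON. It read 9.34 and 9.39 in control, 8.87 and 9.02 with Nutlin-3, and 10.22 and 10.30 in shp63 ON. No group overlapped another. The difference was −0.43 (SE 0.07) with Nutlin-3, that is 1.34-fold lower, and 0.89 (SE 0.07, 1.85-fold) in shp63 ON. The call with Nutlin-3 was lost under the analysis of variance (adjusted p = 0.0797) and without control replicate 2, where the difference was −0.40. Between shp63 ON and Nutlin-3 the gap was 1.32 (SE 0.07, 2.49-fold). The medians of genes at a like level had the opposite signs, 0.05 with Nutlin-3 and −0.07 in shp63 ON.

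MUC16, which carries the CA125 antigen and binds mesothelin, was higher with Nutlin-3 than in control, and higher again in shp63 ON, on every array. It read 10.38 and 10.54 in control, 10.67 and 10.88 with Nutlin-3, and 11.22 and 11.50 in shp63 ON, with no overlap between any 2 groups. In shp63 ON the difference was 0.90 (SE 0.12, 1.87-fold), which did not pass under the analysis of variance (adjusted p = 0.057). With Nutlin-3 it was 0.31 (SE 0.12), which did not pass, and passed in 2 of 15 alternatives. Leaving out single arrays moved the value with Nutlin-3 between 0.21 (without nutlin replicate 2) and 0.42 (without nutlin replicate 1). Genes at a like level had a median of −0.05 in shp63 ON.

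MUC4, a mucin that binds the receptor ERBB2, changed less. Its values were 10.81 and 10.89 in control, 10.85 and 10.95 with Nutlin-3, and 11.16 and 11.25 in shp63 ON. The Nutlin-3 arrays overlapped the control arrays (difference 0.05, SE 0.07, not passed), and both shp63 ON arrays were above all others (0.36, SE 0.07, 1.28-fold). The call in shp63 ON was lost without control replicate 1 and under the analysis of variance (adjusted p = 0.0608).

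MUC20, which lies beside MUC4 on chromosome 3 and binds the receptor MET, had a difference that depended on 1 array. It read 7.07 and 7.01 in control, 7.13 and 6.89 with Nutlin-3, and 7.27 and 7.82 in shp63 ON. The first shp63 ON array lay only slightly above the highest control and Nutlin-3 arrays, and the other stood well apart. The difference from control was 0.51 (SE 0.17), with 0.23 left without shp63_on replicate 2 and 0.78 without shp63_on replicate 1. With Nutlin-3 it was −0.03 (SE 0.17), and those groups overlapped.

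**Figure D2:**
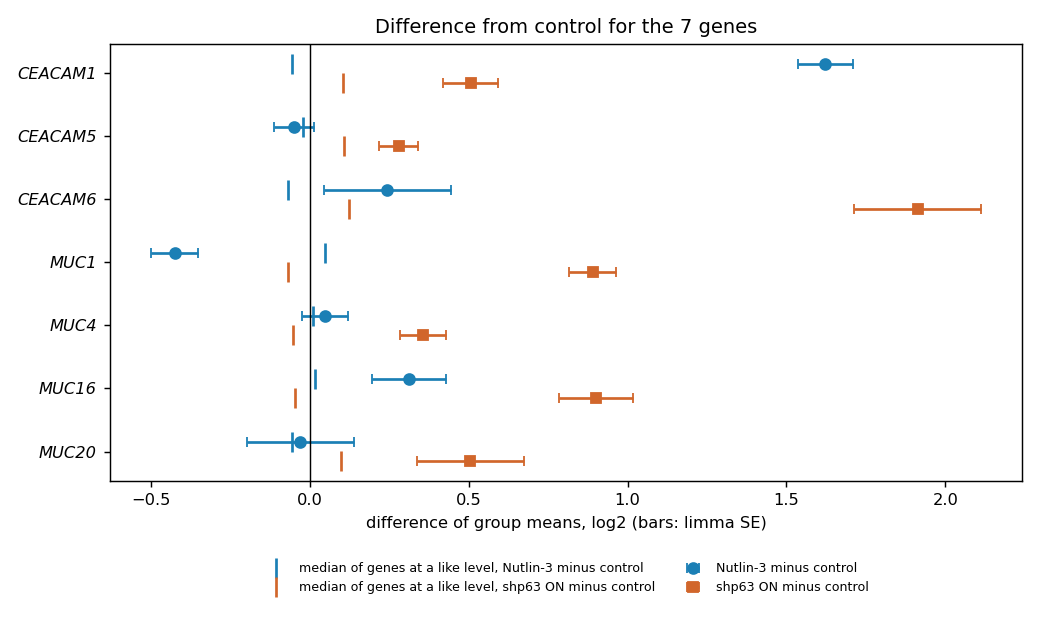
Difference of group means from control on the log2 scale (horizontal axis) for the 7 genes, with limma's SE as bars: circles for Nutlin-3, squares for shp63 ON. Vertical ticks are the median difference of all genes within 0.5 log2 units of that gene's mean level. CEACAM1 is the one gene with a larger difference with Nutlin-3 (1.62) than in shp63 ON (0.51).

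Set directly against Nutlin-3, shp63 ON was higher for 6 of the 7 genes and lower for CEACAM1, and all 7 passed, against 27.5% of all genes higher and 24% lower (51.5% in either direction). The groups did not overlap for any of the 7, against 41.1% of all genes wholly higher and 35.7% wholly lower. MUC20 passed in 6 of 14 alternatives. Without shp63_on replicate 2, 4 were higher and 1 lower, MUC4 and MUC20 dropping out. Under the analysis of variance 3 were higher and 1 lower, and MUC4, MUC16 and MUC20 did not pass. The comparisons with control share the control arrays, so they are set side by side here and no count of genes called in both is given.

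The differences in shp63 ON have to be read against a trend with level across all genes. In shp63 ON, genes whose level averaged 6 to 7 differed from control by a median of 0.17, and 34.7% of them were called higher. For genes at 9 to 10 the median was −0.07, and 13.6% were called higher. CEACAM5, CEACAM1, CEACAM6 and MUC20 lay where the medians of genes at a like level were 0.10 to 0.12, and MUC1, MUC4 and MUC16 where they were −0.07 to −0.05. After cyclic loess normalization the difference in shp63 ON was 0.41 for CEACAM1, 0.17 for CEACAM5 and 0.96 for MUC1. The part of this trend in the differences of the dimmer members was not tested.

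**Figure D3:**
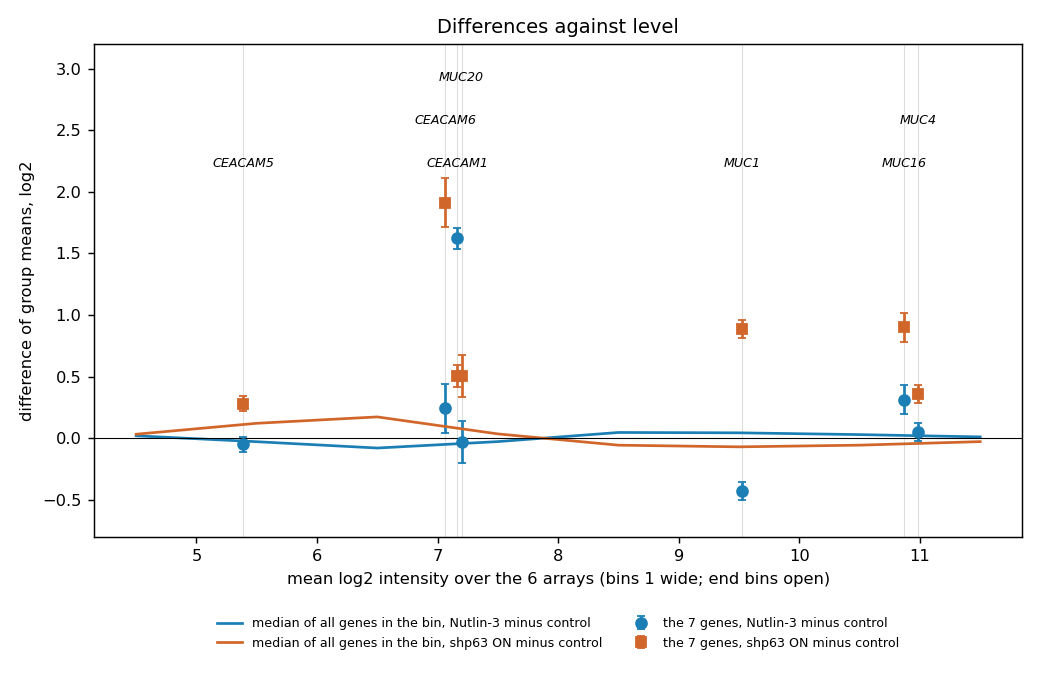
Difference of group means on the log2 scale (vertical axis) against mean log2 intensity over the 6 arrays (horizontal axis). Lines join the medians of all genes in bins 1 log2 unit wide, and points with SE bars are the 7 genes, circles for Nutlin-3 and squares for shp63 ON. In shp63 ON the median of all genes is 0.17 in the bin from 6 to 7 and −0.07 in the bin from 9 to 10.

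Neighbouring genes on the chromosome were looked at by position, taking the 2 nearest protein-coding genes with a value on each side in the RefSeq order of GRCh38.p14. CEACAM1 stands between CXCL17, a chemokine (0.07, SE 0.08, in shp63 ON and −0.08, SE 0.08, with Nutlin-3), and CEACAM8 (0.11, SE 0.11, and 0.12, SE 0.11), and none of these passed. CEACAM5 and CEACAM6 stand between CEACAM7, which did not pass in shp63 ON (0.05, SE 0.08), and CEACAM3, a granulocyte receptor, which did (0.29, SE 0.06). Beside MUC4, the kinase gene TNK2 rose in shp63 ON (0.28, SE 0.06), and the apolipoprotein gene APOD beside MUC20 rose with Nutlin-3 (0.37, SE 0.07). Over the 20 distinct neighbours that were not members, 6 rose and 1 fell in shp63 ON, against 19.7% and 16.5% of all genes. The one that fell was the zinc finger gene ZNF558 near MUC16 (−0.57, SE 0.10). With Nutlin-3, 2 rose (APOD and ZNF558, the latter by 0.37, SE 0.10) and 1 fell (CEACAM3).

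The counts for related genes are to be read beside the shares of all genes that passed, 9.64% higher and 8.89% lower with Nutlin-3 and 19.7% and 16.5% in shp63 ON.

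Of the other CEACAM family genes, 8 of 9 had a value, and 4 rose in shp63 ON and none fell (median log2 difference 0.27, against 0.04 over all genes). CEACAM19 rose most (0.43, SE 0.07), from 7.34 and 7.45 to 7.79 and 7.85, and passed in all 15 alternatives. CEACAM20 (0.29, SE 0.09), CEACAM3 (0.29, SE 0.06) and CEACAM4 (0.27, SE 0.09) were the others, and CEACAM20 passed in 4 of 14 alternatives. The list's median level was 6.23, in the range where all genes shifted up, and 2 rose after cyclic loess normalization. The count was also 2 without control replicate 1, shp63_on replicate 1 or shp63_on replicate 2. With Nutlin-3, CEACAM3 fell (−0.24, SE 0.06) and the other 7 did not pass. That call was lost without any 1 of the control or Nutlin-3 arrays.

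The list of other membrane mucins also held an adhesion molecule, MCAM, and 9 of its 10 genes had a value. In shp63 ON 2 rose, MUC21 (0.57, SE 0.08) and MUC3A (0.25, SE 0.06), and none fell. MUC21 read 6.75 and 6.90 in control, 6.96 and 6.82 with Nutlin-3, and 7.40 and 7.39 in shp63 ON. Its dimmer probe set showed 0.06. MUC12 had 3 probe sets that disagreed in sign in shp63 ON (0.40, −0.38 and 0.03), and its brightest did not pass. After cyclic loess normalization 2 genes rose and 1 fell, and MUC3A was not among those that rose (0.11). The call of MUC3A was lost in 6 of 14 alternatives. Without control replicate 2, shp63_on replicate 1 or shp63_on replicate 2, 1 gene rose. With Nutlin-3 the melanoma adhesion molecule MCAM, which is not a mucin, fell (−0.47, SE 0.06) and the other 8 did not pass. CD164, a sialomucin of the endosome and cell surface, stayed within 12.18 to 12.22 on all 6 arrays.

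Of the secreted mucins, 7 of 8 had a value, and 1 rose with Nutlin-3, MUC19, a gel-forming mucin of glands. It read 5.57 and 5.74 in control, 7.37 and 7.40 with Nutlin-3, and 5.74 and 5.74 in shp63 ON. This difference (1.73, SE 0.07, 3.32-fold, limma adjusted p = 1.17e-05) was of the same order as that of CEACAM1, and it passed in all 15 alternatives (adjusted p 3.9e-07 to 0.0163). MUC19 did not pass in shp63 ON (0.09, SE 0.07). In shp63 ON the intestinal mucin MUC2 (0.34, SE 0.06), the oviductal glycoprotein OVGP1 (0.28, SE 0.08) and the airway mucin MUC5B (0.23, SE 0.06) rose and none fell (median 0.23). After cyclic loess normalization only MUC2 rose. The count was 1 without control replicate 1, shp63_on replicate 1 or shp63_on replicate 2, and 2 without control replicate 2. These genes lay at a median level of 6.39.

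Mucins are glycosylated in the Golgi by enzymes that start (GALNT genes), extend or branch (C1GALT1, GCNT and B3GNT genes) and cap (sialyltransferases) the O-linked chains. Of 29 genes listed for mucin-type O-glycosylation, 27 had a value. With Nutlin-3, 5 rose and 5 fell, and in shp63 ON 7 rose and 4 fell, the latter shares being near those of all genes (19.7% and 16.5%), with medians of −0.03 and 0.02. GALNT5, a chain-starting enzyme, rose in both, from 8.27 and 8.27 in control to 8.94 and 9.10 with Nutlin-3 (0.75, SE 0.07) and 9.14 and 9.13 in shp63 ON (0.87, SE 0.07). With Nutlin-3 GALNT11 (0.48, SE 0.07) and GALNT10 (0.34, SE 0.08) rose, and GALNT12 (−0.39, SE 0.08), the branching enzyme GCNT4 (−0.38, SE 0.06) and the sialyltransferase ST3GAL1 (−0.29, SE 0.06) fell. The calls of GALNT10, ST3GAL1 and GALNT12 were lost in 7, 4 and 2 of 15 alternatives, and that of GALNT11 in 1.

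In shp63 ON the chain-extending enzyme B3GNT3 (0.49, SE 0.06) and the branching enzyme GCNT3 (0.47, SE 0.12) rose, and GALNT18 (−0.52, SE 0.08), GALNT1 (−0.39, SE 0.07) and GALNT7 (−0.37, SE 0.11) fell. GALNT11 also fell there (−0.32, SE 0.07), opposite to its rise with Nutlin-3. In shp63 ON the calls of GCNT3 and GALNT7 were each lost in 5 of 14 alternatives, and that of GALNT1 in 1 of 15. The shp63 ON counts were 4 and 4 after cyclic loess normalization, 5 and 2 without control replicate 1, 3 and 3 without control replicate 2, 5 and 3 without shp63_on replicate 1, and 4 and 2 without shp63_on replicate 2. With Nutlin-3 they were 2 and 2 without control replicate 1, 3 and 1 without control replicate 2, 3 and 3 without nutlin replicate 1, and 4 and 2 without nutlin replicate 2.

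Among the binding partners of these proteins and the proteases that shed them, 20 of 22 genes had a value. With Nutlin-3, 4 rose and 2 fell, and in shp63 ON 6 rose and 4 fell, with medians of 0.01 and 0.06. The receptor ERBB3, a partner of ERBB2, fell with Nutlin-3 (−0.47, SE 0.07) and rose in shp63 ON (0.64, SE 0.07), reading 7.96 and 8.03 in control, 7.58 and 7.48 with Nutlin-3, and 8.64 and 8.64 in shp63 ON. Radixin, RDX, which links membrane proteins to actin, fell with Nutlin-3 (−0.31, SE 0.08) and rose in shp63 ON (0.43, SE 0.08). The membrane protease MMP14 rose with Nutlin-3 (0.61, SE 0.07) and fell in shp63 ON (−0.50, SE 0.07), as did the kinase SRC (0.40, SE 0.07, and −0.46, SE 0.07). The calls of RDX and SRC with Nutlin-3 were lost in 4 and 2 of 15 alternatives.

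Other partners moved in 1 comparison with control. EGFR rose with Nutlin-3 (0.46, SE 0.07), and the protease ADAM9 rose (0.66, SE 0.08) and the catenin CTNNB1 fell (−0.22, SE 0.06) in shp63 ON. The call of CTNNB1 was lost in 5 of 15 alternatives. Mesothelin, MSLN, the ligand of MUC16 and also on the mesothelial marker list, rose in shp63 ON (0.27, SE 0.07) and did not pass with Nutlin-3 (0.03, SE 0.07). MET, the partner of MUC20, passed in neither (−0.02, SE 0.07, with Nutlin-3 and 0.12, SE 0.07, in shp63 ON), and ERBB2, the partner of MUC4, rose in shp63 ON (0.40, SE 0.07). With Nutlin-3 the counts were 2 and 1 without control replicate 1, 3 and 1 without control replicate 2, and 4 and 1 without nutlin replicate 2. In shp63 ON the 4 falls became 2 without any 1 of the control or shp63_on arrays, and the 6 rises became 4 without control replicate 2.

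Of 17 transcription factors of epithelial and secretory cells, 16 had a value, and in shp63 ON 11 rose and none fell (median 0.29), against 19.7% and 16.5% of all genes. ELF3, an epithelial ETS factor, rose most, from 8.50 and 8.52 to 9.59 and 9.62 (1.09, SE 0.06), followed by KLF4 (0.59, SE 0.07) and GRHL2 (0.40, SE 0.06). With Nutlin-3, 1 rose and 6 fell (median −0.16), against 9.64% and 8.89%. ELF3 (−0.57, SE 0.06), the lung factor NKX2-1 (−0.38, SE 0.08) and GRHL2 (−0.37, SE 0.06) fell, and the ETS factor EHF rose (0.66, SE 0.08). The call of NKX2-1, at a mean level of 6.22, was lost in 4 of 14 alternatives, and that of EHF in 1 of 15. ELF3 thus had the order Nutlin-3, control, shp63 ON, as MUC1 did. On the related lists GRHL2, NKX2-1, ERBB3, RDX and CEACAM3 had the same order, called in both comparisons with control. So did FOXA1 (−0.32, SE 0.08, with Nutlin-3 and 0.26, SE 0.08, in shp63 ON) and SPDEF (−0.25, SE 0.07, and 0.21, SE 0.07). SPDEF only just passed in both (limma adjusted p = 0.044 and 0.048), and genes at its level had a median of 0.17 in shp63 ON. The genes named here were picked for matching this order. The share of all genes with it was not counted and both comparisons share the control arrays, so nothing is read from the match. In shp63 ON 8 rose after cyclic loess normalization, 6 without control replicate 2, and 7 without control replicate 1, shp63_on replicate 1 or shp63_on replicate 2. With Nutlin-3, 2 fell without either control array and 3 without either nutlin array.

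**Figure D4:**
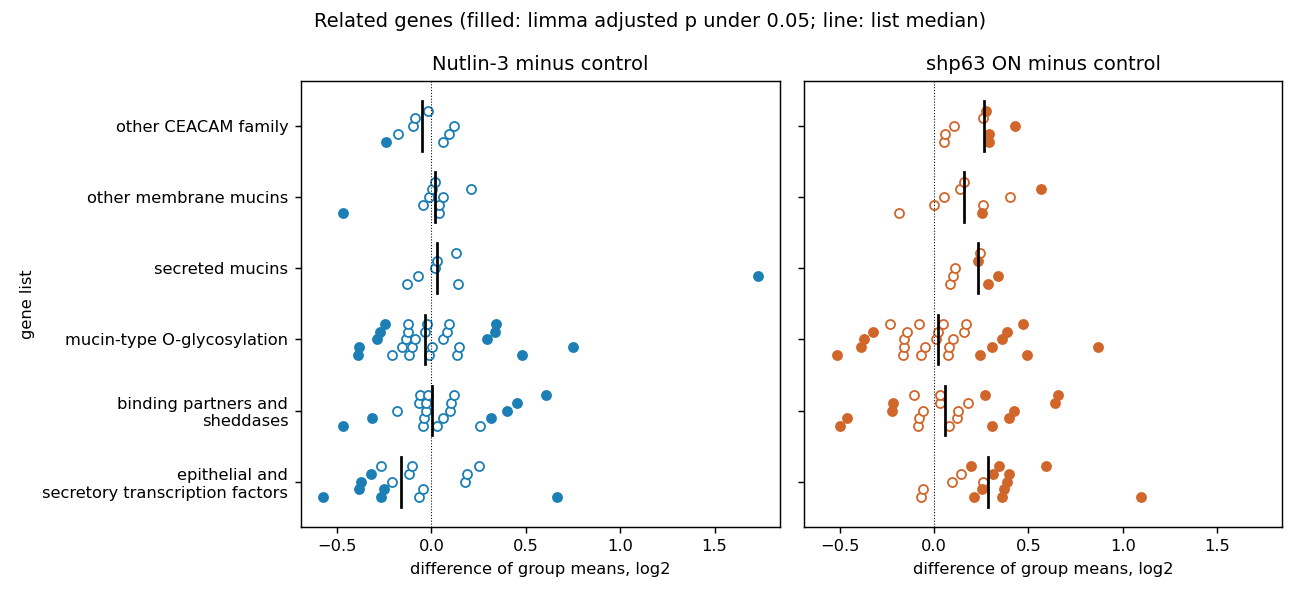
Difference of group means on the log2 scale (horizontal axes) for each gene of 6 related lists (vertical axis, points spread for legibility), Nutlin-3 minus control on the left and shp63 ON minus control on the right. Filled points passed limma's threshold (adjusted p under 0.05), open points did not, and black lines are list medians. MUC19 stands alone at 1.73 with Nutlin-3, and ELF3 is the rightmost point in shp63 ON at 1.09.

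Genes whose profile over the 6 arrays lay nearest to that of a member were found by the root mean square distance between profiles, each centred on its own mean. For CEACAM1 they were TREML1 (0.15 log2 units), the transcriptional repressor BCL6 (0.16) and the ankyrin ANK1 (0.17). For CEACAM6 they were the amino acid transporter SLC6A14 (0.23), the HLA complex transcript HCP5 (0.23) and the antiviral factor SAMD9L (0.26). The nearest to MUC1 were the proteoglycan CSPG4, the chloride channel gene CLIC5 and the galactosyltransferase B4GALT4 (0.04 to 0.06), and to MUC16 the urokinase receptor PLAUR, CDIN1 and LHFPL2 (0.09 to 0.11). Genes within 0.25 log2 units numbered 28 for CEACAM1, 2 for CEACAM6, 313 for MUC1 and 645 for MUC16. Those named for MUC1 and MUC16 are therefore 3 of many near genes. The distance grows with the gap between a member's own replicates, which was widest for CEACAM6, and with the size of its differences. Neither distances nor these counts are therefore compared between members. The other 3 members had smaller ranges between group means (under 0.58) and were not compared in this way.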

How the data were processed

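The deposited table holds log2 intensities of 32321 probe sets on Affymetrix HuGene 1.0 ST arrays, as given by the authors. The log2 scale was read from the values (2.94 to 14.9, array medians 6.57 to 6.70). The submitters' processing notes name Partek, with no version, and the design text names a one-way analysis of variance. The sources used here do not name the background correction, normalization or probe summary. Precision is limited by the number of arrays. Of the probe sets, 19158 name 1 gene (18404 genes), 1388 several and 11775 none, by the platform annotation, and the brightest stood for a gene. No dim gene was left out.

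A linear model with a mean for each group was fitted to the 6 arrays together (limma 3.58.1, R 4.3.3, 3 residual degrees of freedom before moderation), with Benjamini-Hochberg adjustment over 18404 genes and a threshold of 0.05. With 2 arrays a group, the smallest exact permutation p is 0.333. The fit was tested on simulated data. Members and lists were chosen with earlier results of these data known. Named related genes are the up to 3 largest called differences per list, comparison with control and direction whose groups did not overlap. CEACAM4, GALNT11 in shp63 ON, CD164, MET, MSLN, ERBB2, the named neighbours and the dimmer probe sets were named after their values were seen. The same holds for FOXA1, SPDEF, MUC12 and DSG3. Some genes were not analysed here.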

Additional observations from a re-analysis of the deposited data

How the results depend on the processing

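Across 15 alternatives, 309 values were recomputed for the differences of the 7 members in the 3 comparisons. Of these, 293 moved by less than 1 SD between replicates, 16 by more, and no called difference changed sign. Only median centring, quantile normalization and cyclic loess could have moved a value by more, and all 16 came from them. The other fits left the difference unchanged or dropped 1 array, which cannot shift it by more than that SD. The 293 are therefore no measure of stability. Centring arrays on their medians gave CEACAM5 −0.015 with Nutlin-3 and 0.28 between shp63 ON and Nutlin-3. Quantile normalization gave CEACAM6 0.31 with Nutlin-3; CEACAM1 0.42, CEACAM5 0.19 and MUC1 0.96 in shp63 ON; and CEACAM5 0.22, MUC1 1.44 and MUC4 0.38 between shp63 ON and Nutlin-3. Cyclic loess gave CEACAM1 0.41, CEACAM5 0.17 and MUC1 0.96 in shp63 ON, and CEACAM1 −1.24, CEACAM5 0.20, MUC1 1.44 and MUC4 0.40 between shp63 ON and Nutlin-3. The cause was not tested.

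Over all genes 3410, 6670 and 9481 passed, in the order Nutlin-3 and then shp63 ON, each set against control, and last shp63 ON set against Nutlin-3. The analysis of variance without moderation left 1236, 3003 and 6089, and leaving out single arrays gave 1405 to 2991, 3454 to 6960 and 7356 to 8918. Of 87 related genes, 26, 41 and 54 passed. The analysis of variance left 13 and 23 in the comparisons with control, and leaving out single arrays gave 12 to 23 and 24 to 42. Where a group is left with 1 array, that array is assumed to vary like the others. The alternatives are not all distinct. For a given comparison, fitting only its own groups and leaving out either array of the remaining group are the same fit. Averaging over probe sets leaves the values of genes with 1 probe set unchanged. Tallies of alternatives passed or lost therefore count some results more than once. Centring arrays turned 1774 higher and 1636 lower genes with Nutlin-3 into 2175 and 1236. Over 36 list counts and 15 alternatives (540 values), 445 stayed within 1.5 times, 85 were fewer and 10 more.

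Same-numbered replicates are not said to be paired, and their deviations correlated between groups at −0.06, −0.02 and 0.11. With the replicate number as a block, 3097, 6530 and 9405 genes and 23, 39 and 53 related genes passed. Among members, MUC16 then passed with Nutlin-3 and MUC20 did not in shp63 ON. Intensities near the low end, as for CEACAM5, limit what can be said of dim genes.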
